A study of Mus musculus with 24 samples.

Results

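The genes described here carry the signal of follicle-stimulating hormone (FSH) from the cell surface to the nucleus. They are the FSH receptor (Fshr), the adenylyl cyclases Adcy7 and Adcy9, the protein kinase A (PKA) subunits Prkaca, Prkar1a and Prkar2b, the anchoring protein Akap12, the transcription factors Creb1 and Crem, and the phosphodiesterase Pde4b. They were chosen by name, as 10 listed genes, and each was read through every probe set that the platform annotation gives to that gene alone. This gave 20 probe sets for 9 of the genes, of 22626 probe sets on the array that are no control. Prkar2b was not analysed here.

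FSH binds its receptor on granulosa cells, the cells that surround the oocyte, and the receptor activates adenylyl cyclases, which make cyclic AMP (cAMP). cAMP releases the catalytic subunits of PKA from the regulatory subunits, and the freed kinase phosphorylates CREB, a factor that binds cAMP response elements in gene promoters. Anchoring proteins hold PKA at its place in the cell, phosphodiesterases break cAMP down, and CREM can act as a brake on the same response elements. After ovulation the luteal cells use cAMP as well, mainly downstream of luteinizing hormone, to drive the synthesis of progesterone.

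Ovaries of 2 mouse lines were compared at the metestrous stage, the stage of the cycle that follows ovulation. FL1 is a high-fertility line selected to generation 130 for an index of litter size and litter weight at birth, and DUKsi is an unselected control line from the same founder population that was inbred by full-sib mating. Virgin females were 6 to 9 weeks old, received no treatment, and RNA of 30 of them per line was combined to 6 pools. The methods give 5 animals per pool and the labels give 6. Each pool was hybridized to 2 arrays, 24 arrays in all, and the values are MAS5 signals, which are linear intensities scaled to a common level on each array. With 1 selected line and 1 control line, an effect of selection and of chance fixation of alleles in a line cannot be told apart.

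The lines were compared over pools with limma, with Benjamini-Hochberg adjustment over all 22626 probe sets, and a probe set passed at an adjusted p under 0.01. Fold changes are FL1 over DUKsi on the log2 scale, and intervals have a confidence level of 95%. A signal depends on the probes as well as on the RNA, so levels are set side by side only within a probe set. A whole ovary also holds many cell types, so fewer cells of a type and less RNA per cell cannot be told apart. Of the listed marker genes of granulosa cells, luteal cells and oocytes, 10 each were measured in both lines. The dimmest was Figla of oocytes, at the percentile 33.0 of the mean signals of the array. Cyp19a1, Foxl2, Prlr, Lhcgr and Ooep of these lists were not analysed here.

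RNA quality differed between the lines by the beta-actin measure and not past a test by the Gapdh measure. The ratio of 3′ to 5′ signal of beta-actin, which rises as RNA is degraded, was 1.67 ± 0.423 in FL1 pools and 1.27 ± 0.0522 in DUKsi pools (SD over 6 pools per line, here and for every mean given with ±), and no FL1 pool overlapped with a DUKsi pool (exact permutation test, two-sided, p = 0.00216, the smallest that 6 against 6 allows). FL1 pool 3 stood apart with a ratio of 2.45 and had the lowest mean correlation with the pools of its line, 0.947. The median signal of a pool averaged 221 ± 7.98 over FL1 and 235 ± 4.95 over DUKsi, with a two-sided p of 0.0108 by the exact permutation test. Among the 20 probe sets, FL1 pool 3 held the highest FL1 signal for 10 and the lowest for 3.

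Promoter sequences were read for the genes to show whether they themselves carry the element through which the pathway acts. RefSeq windows of 300 bases on GRCm38.p6, from 250 before to 50 after a transcript start, were found for 8 of the 10 genes, in 20 windows. Crem and Akap12 have no window in the table. The sequences are those of the reference mouse and not of FL1 or DUKsi. Searched were the full cAMP response element, TGACGTCA, and the short element TGACG, which lies within it, on both strands. Of 32851 windows of all genes, 1.79% held the full element and 20.8% the short one. Of the 20 windows of the genes described here, 2 held the full element and 7 the short one. Both with the full element belong to Prkar1a and overlap each other. Short elements were found in windows of Adcy7, Adcy9, Prkaca, Prkar1a and Pde4b. The stretches of 60 bases around the element are printed for both adenylyl cyclases, since the lines differed in the signal of one of them, and for Prkar1a, where the full element was found. They run 5′ to 3′ on the strand of the gene, with the element in capitals. A further stretch shows Fshr, in whose window neither element was found and which holds instead an E box (CACGTG), the site that is known to drive the Fshr promoter. The E box was searched after the other values had been seen, and 7.2% of all windows hold it.
Adcy7, chr8:88282938-88282997, plus strand: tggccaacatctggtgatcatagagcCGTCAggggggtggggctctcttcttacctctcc
Adcy9, chr16:4420489-4420548, minus strand: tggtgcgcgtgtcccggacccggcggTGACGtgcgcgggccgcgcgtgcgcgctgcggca
Prkar1a, chr11:109650874-109650933, plus strand: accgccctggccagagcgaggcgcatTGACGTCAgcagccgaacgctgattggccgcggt
Fshr, chr17:89200703-89200762, minus strand: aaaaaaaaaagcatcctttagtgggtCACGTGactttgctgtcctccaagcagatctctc
Counted from the transcript start, the element begins at -28 in Adcy7, in 1 of its 3 windows, at -24 in Adcy9, and at -49 in the printed window of Prkar1a. In the overlapping Prkar1a window the same element begins at 38, after the start of that transcript. The further windows of Prkar1a hold no full element. The E box of Fshr begins at -61. A match is a description of these letters and not a measured binding site.

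Of the 20 probe sets, 2 were lower in FL1 and 0 were higher, and both belong to Adcy7. Over the whole array, 1.55% of the probe sets were lower and 1.83% higher. At an unadjusted p under 0.05, limma had 1 of the 20 higher and 4 lower, and the methods' t-test, adjusted the same way, passed 0 higher and 1 lower. The lines did not overlap for 2 of the 20, against 4.62% of all probe sets, and 2 of the 20 both passed and had mean signals more than 1.5-fold apart, against 2.32% of all. These are the same 2 Adcy7 probe sets. Counted by gene, with the probe set of highest signal, 1 of 9 genes was lower and 0 higher, against 1.65% and 2.08% of 12393 genes. The 2 probe sets share a gene, so the count rests on Adcy7 alone. The median log2 fold change was -0.09 over the 20 probe sets and -0.07 over all, and 25% of the 20 against 19.8% of all had an unadjusted p under 0.05.

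**Figure D1:**
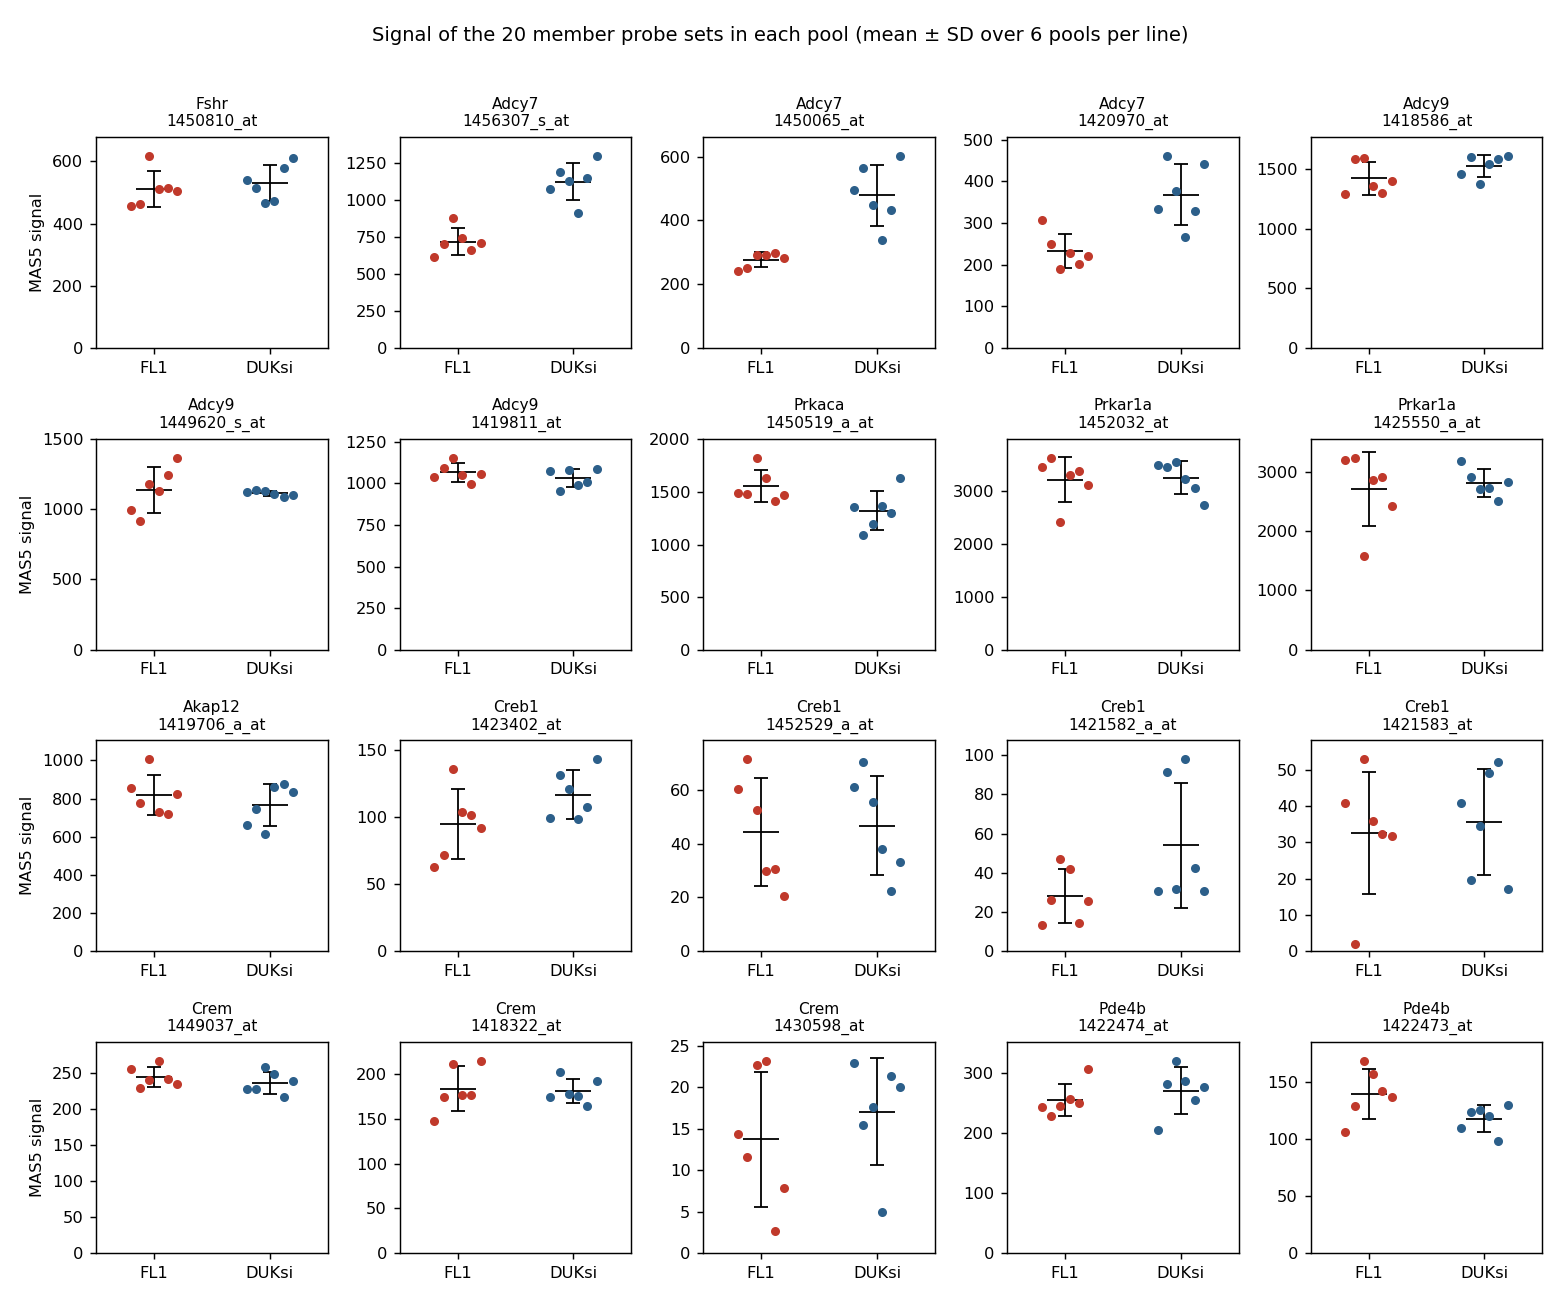
MAS5 signal (y axis, linear, from 0) of each of the 20 probe sets in the 6 FL1 pools (red, left) and the 6 DUKsi pools (blue, right), with the mean and SD of each line. The lines do not overlap for Adcy7 1456307_s_at and 1450065_at, and overlap in the other panels.

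Fshr, the receptor, did not pass the test. Probe set 1450810_at had a lowest, median and highest signal of 458.3, 508 and 617.1 in FL1 pools, against 465.7, 526.9 and 612.6 in DUKsi pools. The lines overlapped over almost the whole range, and the FL1 pool was the higher one in 12 of 36 pairs of an FL1 and a DUKsi pool. The mean was 511 ± 57.2 in FL1 and 530.4 ± 58.2 in DUKsi, and the log2 fold change was -0.05 (SE 0.0945, limma adjusted p = 0.807). Its interval runs from -0.25 to 0.15, which is 0.839-fold to 1.11-fold, so the values leave room for differences within these bounds. The highest FL1 signal was that of FL1 pool 3. Without that pool the log2 fold change was -0.11 (adjusted p = 0.463), and with the beta-actin ratio as a covariate -0.19 (adjusted p = 0.229).

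Adcy7, a cyclase that makes cAMP and is activated by G protein βγ subunits and protein kinase C as well as by Gs, was lower in FL1. Its brightest probe set, 1456307_s_at, read 615, 700.5, 881, 741.4, 662.4 and 708.9 in FL1 pools 1 to 6, against 1077, 1185.7, 1125, 914.6, 1145.1 and 1295.8 in DUKsi pools 1 to 6. All FL1 pools lay below all DUKsi pools, although the highest FL1 pool (pool 3) and the lowest DUKsi pool (pool 4) came close to each other. The mean was 718 ± 90.8 in FL1 and 1124 ± 126 in DUKsi, a ratio of 0.639 and a log2 fold change of -0.65 (SE 0.0951, interval -0.85 to -0.45, limma adjusted p = 0.000437). The suffix _s_at marks probes that can match more than 1 transcript, so this probe set alone does not settle which RNA was measured.

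The other Adcy7 probe sets carry the plain suffix _at. Probe set 1450065_at read 241.9, 252.5, 292.4, 291.4, 297.6 and 283.8 in FL1 pools 1 to 6, against 494.5, 564, 447.6, 337.3, 432.5 and 601.4 in DUKsi pools 1 to 6. The FL1 pools lay in a narrow band below all DUKsi pools, which spread more widely. The mean was 277 ± 23.4 in FL1 and 480 ± 95.6 in DUKsi, a log2 fold change of -0.77 (SE 0.128, interval -1.04 to -0.50, limma adjusted p = 0.00116). The methods' t-test gave an adjusted p of 0.0163 for it, which does not pass.

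Probe set 1420970_at of Adcy7 did not pass, at an adjusted p of 0.0122 (limma). It read 306.2, 249, 189.8, 228.8, 201.7 and 221.9 in FL1 pools 1 to 6, against 332.5, 460.3, 376.8, 267, 329.2 and 440.6 in DUKsi pools 1 to 6. Only FL1 pool 1 reached into the DUKsi range, above DUKsi pool 4, so that the FL1 pool was the higher one in 1 of 36 pairs. The mean was 233 ± 41.5 in FL1 and 368 ± 73.2 in DUKsi, a log2 fold change of -0.65 (SE 0.147, interval -0.97 to -0.34). It passed without FL1 pool 1 (adjusted p = 0.00566) and without DUKsi pool 4 (adjusted p = 0.0045), the pools that made the lines overlap. Leaving out any other single pool gave a limma adjusted p between 0.0178 and 0.0352, which does not pass. The size of its difference depended on the array. On the first array of each pool alone the log2 fold change was -0.42 (adjusted p = 0.243), and on the second -0.90 (adjusted p = 0.00354).

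The Adcy7 probe sets ordered the FL1 pools differently. FL1 pool 3 was the highest FL1 pool in 1456307_s_at and the lowest in 1420970_at. The log2 ratio of 1456307_s_at to 1450065_at within a pool differed between FL1 and DUKsi by 0.13 (exact permutation test, two-sided, p = 0.206, adjusted p = 0.288 over 7 pairs of probe sets), and that to 1420970_at by 0.01 (p = 0.974). DUKsi pool 4 was the lowest of its line in all 3. Without FL1 pool 3, the log2 fold change was -0.71 for 1456307_s_at (adjusted p = 9.47e-05), -0.79 for 1450065_at (adjusted p = 0.00161) and -0.60 for 1420970_at (adjusted p = 0.02). With the beta-actin ratio as a covariate the values were -0.81 (adjusted p = 0.000174) for 1456307_s_at, -0.84 (adjusted p = 0.00395) for 1450065_at and -0.47 (adjusted p = 0.0807) for 1420970_at.

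**Figure D2:**
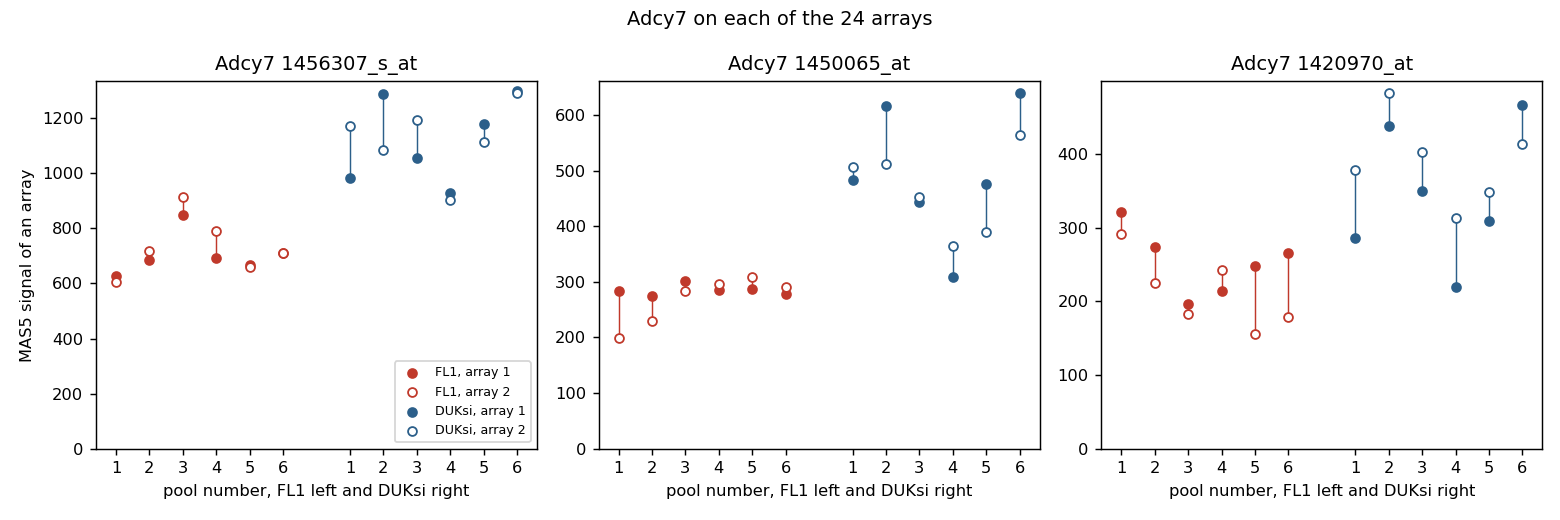
MAS5 signal (y axis, linear, from 0) of the 3 Adcy7 probe sets on each of the 24 arrays, with FL1 pools (red) left and DUKsi pools (blue) right; filled and open points are the 2 arrays of a pool, joined by a line. On single arrays 1450065_at separates the lines only narrowly, with a highest FL1 array of 308.5 and a lowest DUKsi array of 309.4. The highest FL1 array of 1456307_s_at, 914.1, lies above the lowest DUKsi array, 902.3. The arrays of 1420970_at overlap as well, with a highest FL1 array of 320.9 and a lowest DUKsi array of 220.3.

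Markers of some cell types moved with the line as well. The study had already reported some of them as differing in these arrays, such as Ccnd2, Cdh2, Inhbb, Cyp11a1 and Ptgfr. The granulosa and luteal counts are therefore partly fixed in advance and are given as a description. Summed over the 10 measured granulosa markers, the signal ranged between 43910 and 50000 in FL1 pools and between 51330 and 59160 in DUKsi pools, with 3 of 10 markers lower and 0 higher. The 10 measured luteal markers summed to between 69770 and 79870 in FL1 pools and between 36750 and 55020 in DUKsi pools, with 5 of 10 higher and 0 lower. Of all genes, 1.65% were lower and 2.08% higher. At an unadjusted p under 0.05, 8 granulosa markers were lower and 1 higher, and 9 luteal markers were higher and 0 lower. Over all genes, 20.6% had an unadjusted p under 0.05 in either direction, which holds beside each such count of markers. The methods' t-test passed 2 granulosa markers, both lower, and 4 luteal markers, all higher. The 10 measured oocyte markers summed to between 8067 and 10490 in FL1 and between 10760 and 12530 in DUKsi, with 1 lower. Leukocytes are known to express Adcy7, and 0 of 7 macrophage and 0 of 6 lymphocyte markers passed in either direction. Their sums overlapped, at 5198 to 6308 in FL1 and 4287 to 6262 in DUKsi for macrophages and 739.8 to 1114 in FL1 and 640.4 to 1010 in DUKsi for lymphocytes. At an unadjusted p under 0.05, 2 macrophage markers and 1 lymphocyte marker were higher and none lower, and the methods' t-test passed 0. Theca, smooth muscle and endothelial marker sums overlapped between the lines. With limma, 0 of 5 theca markers passed, 1 of 6 smooth muscle markers was lower and 1 of 8 endothelial markers was higher. At an unadjusted p under 0.05, 3 theca markers were lower and 0 higher, and 1 smooth muscle marker was lower and 1 higher. For endothelial markers, 4 were higher and 0 lower at that level. No measured marker was at 0. The part of cell composition and of RNA quality in the Adcy7 difference was not tested.

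Adcy9, a cyclase that most tissues express, did not pass with any of its 3 probe sets. Probe set 1418586_at had a lowest, median and highest signal of 1290, 1378 and 1594 in FL1, against 1372, 1561 and 1605 in DUKsi. The mean was 1420 ± 135 in FL1 and 1526 ± 93.1 in DUKsi, a log2 fold change of -0.11 (interval -0.26 to 0.05, limma adjusted p = 0.446). The log2 fold change was 0.02 for 1449620_s_at (interval -0.16 to 0.20) and 0.05 for 1419811_at (interval -0.08 to 0.18). For 1449620_s_at the spread differed more than the level, with a coefficient of variation of 14.5% in FL1 and 1.70% in DUKsi. That difference in spread was not tested. The within-pool log2 ratio of Adcy7 1456307_s_at to Adcy9 1418586_at was -0.99 ± 0.120 in FL1 and -0.45 ± 0.166 in DUKsi, lower by 0.54 in FL1 (exact permutation test, two-sided, p = 0.00216, the smallest possible, adjusted p = 0.00505). This ratio restates the fold changes of these cyclase probe sets and adds no evidence beyond them.

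Prkaca, the main catalytic subunit of PKA, did not pass. Probe set 1450519_a_at read 1486.2, 1482.9, 1824.9, 1635.4, 1414 and 1474.7 in FL1 pools 1 to 6, against 1353, 1086.9, 1197, 1363.5, 1299.1 and 1633.2 in DUKsi pools 1 to 6. The FL1 pool was above in 32 of 36 pairs, with DUKsi pool 6 as the one DUKsi pool among the FL1 values. The mean was 1553 ± 152 in FL1 and 1322 ± 185 in DUKsi, a log2 fold change of 0.24 (SE 0.0921, interval 0.04 to 0.43, limma adjusted p = 0.151). With the beta-actin ratio as a covariate it was 0.14 (adjusted p = 0.407).

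Prkar1a, a regulatory subunit that holds the catalytic subunits inactive until cAMP binds, did not pass either. Probe set 1452032_at averaged 3223 ± 426 in FL1 and 3257 ± 314 in DUKsi, a log2 fold change of -0.02 (interval -0.22 to 0.18, limma adjusted p = 0.929). Probe set 1425550_a_at averaged 2705 ± 626 in FL1 and 2811 ± 231 in DUKsi, a log2 fold change of -0.09 (interval -0.39 to 0.21, adjusted p = 0.772). FL1 pool 3 was the lowest pool in both, at 2425.6 and 1574.6. Without that pool the log2 fold changes were 0.06 and 0.06, and with the beta-actin ratio as a covariate 0.19 and 0.32 (adjusted p = 0.163 and 0.0133), none of them past the test. FL1 pool 3 is also the pool with the highest beta-actin ratio, and the part of RNA quality in these signals was not tested.

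Akap12, which anchors PKA near receptors at the plasma membrane, averaged 819 ± 106 in FL1 and 767 ± 108 in DUKsi by probe set 1419706_a_at. The pools overlapped, between 721.6 and 1005.8 in FL1 and between 616.8 and 877.7 in DUKsi. The log2 fold change was 0.10 (interval -0.13 to 0.32, limma adjusted p = 0.656).

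Creb1, the factor that PKA activates, was dim on these arrays, so its values bound the difference only loosely. Its 4 probe sets lay at the percentiles 32.3, 17.8, 16.4 and 14.2 of the mean signals of the array. The brightest, 1423402_at, averaged 94.7 ± 26.1 in FL1 and 116.9 ± 18.0 in DUKsi, a log2 fold change of -0.34 (interval -0.75 to 0.08, limma adjusted p = 0.368). Probe set 1421582_a_at averaged 28.1 ± 14.0 in FL1 and 54.1 ± 31.8 in DUKsi (-0.91, adjusted p = 0.220), and the other 2 had log2 fold changes of -0.11 and -0.48. With the beta-actin ratio as a covariate, 1423402_at was at -0.72 (adjusted p = 0.024) and 1421582_a_at at -1.58 (adjusted p = 0.0311), neither past the test. The SD of a single array within its pool, on the log2 scale, was 0.305 to 1.05 for these 4 probe sets. None passed, and the intervals leave room for differences in either direction in 3 of the 4.

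Crem, which encodes activators and the repressor ICER from the same gene, had 3 probe sets that did not pass. The brightest, 1449037_at, averaged 245 ± 14.0 in FL1 and 237 ± 15.4 in DUKsi, a log2 fold change of 0.05 (interval -0.15 to 0.25, limma adjusted p = 0.809). For 1418322_at the log2 fold change was 0.01 (adjusted p = 0.972). The third, 1430598_at, averaged 13.8 in FL1 and 17.1 in DUKsi at the percentile 6.04. There the SD of a single array within its pool was 1.46 on the log2 scale.

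Pde4b, which breaks down cAMP, had 2 probe sets that did not pass and that lay on opposite sides of 0. Probe set 1422474_at averaged 255 ± 27.1 in FL1 and 271 ± 38.6 in DUKsi (-0.08 on the log2 scale, interval -0.33 to 0.17, limma adjusted p = 0.756). Probe set 1422473_at averaged 140 ± 22.0 in FL1 and 118 ± 11.9 in DUKsi (0.24 on the log2 scale, interval -0.07 to 0.55, adjusted p = 0.397). Their within-pool log2 ratio differed between the lines by 0.32 (exact permutation test, two-sided, p = 0.0325, adjusted p = 0.0568 over the 7 pairs), which does not pass.

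**Figure D3:**
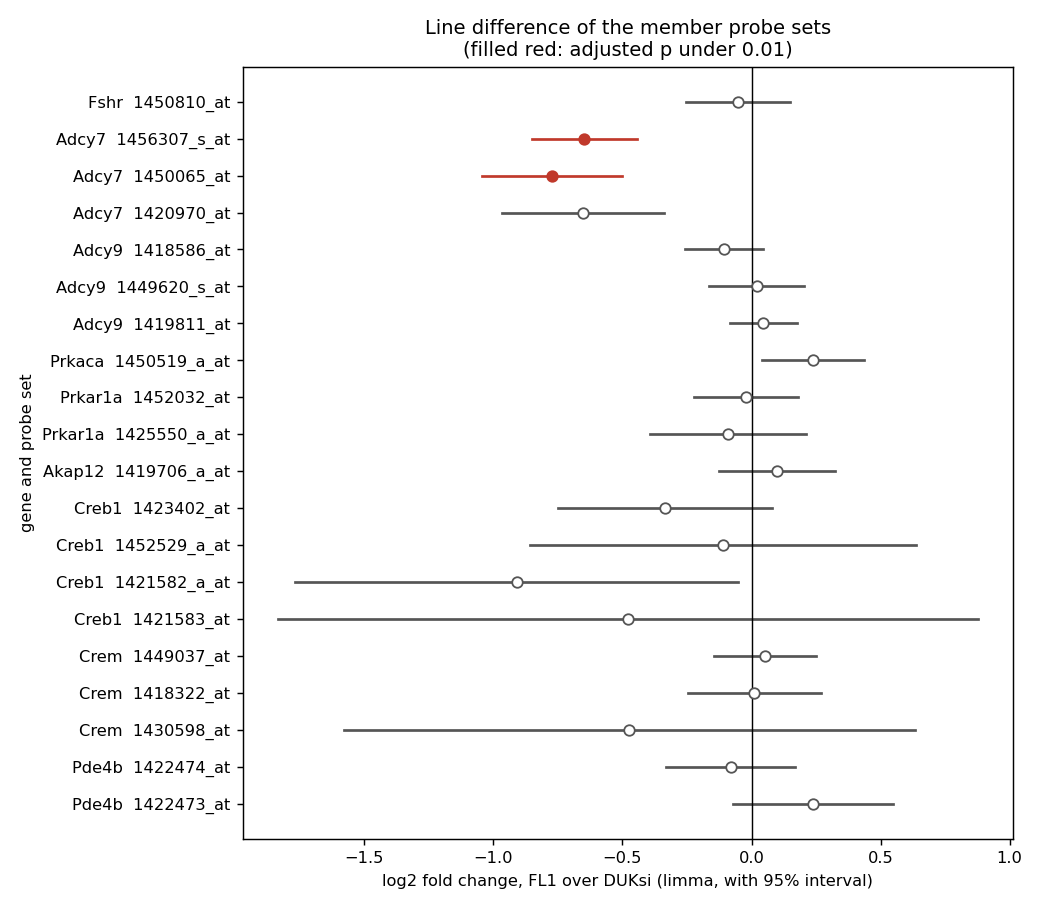
Log2 fold change, FL1 over DUKsi (x axis), of each of the 20 probe sets (y axis), with its 95% interval from limma. Filled red points passed at an adjusted p under 0.01; they are 1456307_s_at at -0.65 and 1450065_at at -0.77, both of Adcy7, and the dim Creb1 probe sets and Crem 1430598_at have the widest intervals.

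For 12 of the 20 probe sets (60%) the interval lay within 1.5-fold in both directions, near the 53.5% of all probe sets. They cover Fshr, Adcy9, Prkaca, Prkar1a, Akap12, Crem and Pde4b, each with at least 1 probe set, and none of Adcy7 or Creb1.

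The wider cAMP pathway was read through lists of 89 genes by role, of which 64 were measured. By the probe set of highest signal, 2 of the 64 were higher in FL1, 1 was lower and 61 did not pass, near the 2.08% and 1.65% of all genes. Over all their 115 probe sets, 4 were higher and 3 lower, and the median log2 fold change of the 64 genes was -0.08. At an unadjusted p under 0.05, 7 of the 64 genes were higher and 9 lower. Of all genes, 20.6% reached that level in either direction, and the counts by role below are to be read beside this share. The other gonadotropin receptor, Lhcgr, was not analysed here.

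Among receptors coupled to cAMP, 1 of 7 was higher and 0 were lower. At an unadjusted p under 0.05, 1 was higher and 1 lower, and the methods' t-test passed 1 higher and 0 lower. The one that rose was Ptger2, a receptor for prostaglandin E2 that acts in the expansion of the cumulus around the oocyte. It ranged between 449.9 and 559.8 in FL1 pools and between 262 and 392.4 in DUKsi pools, without overlap. Its mean was 495 ± 41.4 in FL1 and 344 ± 43.8 in DUKsi, a log2 fold change of 0.53 (limma adjusted p = 0.00349). Leaving out FL1 pool 4 gave an adjusted p of 0.0114 and leaving out FL1 pool 6 one of 0.0117, neither of which passes. With the beta-actin ratio as a covariate the adjusted p was 0.0181, and with only 1 array per pool it was 0.0255 for array 1 and 0.0213 for array 2, none of them past the test.

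Among adenylyl cyclases, 1 of 7 was lower, Adcy7, and 0 were higher. The methods' t-test passed 1 lower and 0 higher, and at an unadjusted p under 0.05, 1 was lower and 1 higher. The higher one was Adcy2, at 376 ± 84.7 in FL1 and 256 ± 21.0 in DUKsi, with 0.53 as its log2 fold change and a limma adjusted p of 0.0163. FL1 pool 3 gave its highest value, 546.

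Of 8 PKA subunits and PKA inhibitors and of 10 anchoring proteins, 0 passed with limma or with the methods' t-test. At an unadjusted p under 0.05, 2 of the 8 were higher and 2 lower, and of the anchoring proteins 0 were higher and 2 lower. Of 11 cAMP phosphodiesterases 0 passed with either test, and 0 had an unadjusted p under 0.05 by the brightest probe set. These counts are all by the brightest probe set of a gene, and dimmer probe sets of Pde7a and Pde7b were lower at an unadjusted p under 0.05, none of them past the test. The one measured Epac gene, Rapgef3, a cAMP-activated exchange factor that works beside PKA, had 0.32 as the log2 fold change of its brightest probe set (adjusted p = 0.281).

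In the CREB family and its coactivators, 0 of 10 passed by the brightest probe set, 0 by the methods' t-test and 0 at an unadjusted p under 0.05. Yet 2 of these genes had a dimmer probe set that passed. For Creb3, a membrane-bound factor of the endoplasmic reticulum that is not known as a PKA target, probe set 1419979_s_at averaged 1223 ± 82.2 in FL1 and 512 ± 58.3 in DUKsi, a log2 fold change of 1.26 (limma adjusted p = 1.04e-07). Its lowest FL1 pool, 1058.8, was far above its highest DUKsi pool, 576.5. The brightest Creb3 probe set, 1424741_s_at, averaged 1108 ± 43.8 in FL1 and 1104 ± 85.3 in DUKsi (0.01, adjusted p = 0.963), and the other 2 had log2 fold changes of 0.08 and 0.16 that did not pass. Within pools the log2 ratio of 1419979_s_at to 1424741_s_at was higher in FL1 by 1.25, which restates these values and adds no test of its own. Both carry the suffix _s_at, so neither alone settles which RNA was measured.

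Creb3l2, a related membrane-bound factor, also split by probe set. Probe set 1437396_at averaged 474 ± 58.0 in FL1 and 727 ± 45.3 in DUKsi, without overlap (log2 fold change -0.62, limma adjusted p = 0.000361). The brighter 1452381_at averaged 2324 ± 234 in FL1 and 2285 ± 82.8 in DUKsi (0.02, adjusted p = 0.910). Their within-pool log2 ratio was lower in FL1 by 0.64, again as a description. Different probe sets of a gene can read different parts of its transcripts, and which RNA each of these measured was not tested.

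Among 10 cAMP-responsive genes of granulosa and luteal cells, 1 was higher by the brightest probe set and 0 were lower (3 higher and 3 lower at an unadjusted p under 0.05, and 1 higher and 0 lower by the methods' t-test). Cyp11a1, the first enzyme of steroid synthesis, averaged 11050 ± 895 in FL1 and 5762 ± 1422 in DUKsi, a log2 fold change of 0.98 (limma adjusted p = 0.000376), and the pools did not overlap. Star, which carries cholesterol to that enzyme, averaged 3240 ± 1142 in FL1 and 1113 ± 585 in DUKsi by 1418729_at (1.61, adjusted p = 0.00765), while its other 2 probe sets had adjusted p of 0.0333 and 0.0300. With the beta-actin ratio as a covariate 1418729_at did not pass (adjusted p = 0.0365). Sgk1, a kinase gene induced by FSH, averaged 1831 ± 293 in FL1 and 904 ± 374 in DUKsi without overlap of the pools, and did not pass (1.15, adjusted p = 0.0142). Inha, the alpha subunit of inhibin made by granulosa cells, averaged 13640 ± 755 in FL1 and 15300 ± 1219 in DUKsi (-0.16, adjusted p = 0.169). Cyp11a1 and Star are also luteal markers and Inha is a granulosa marker, and both marker sums moved with the line as given for Adcy7. The part of cell composition in these signals was not tested.

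**Figure D4:**
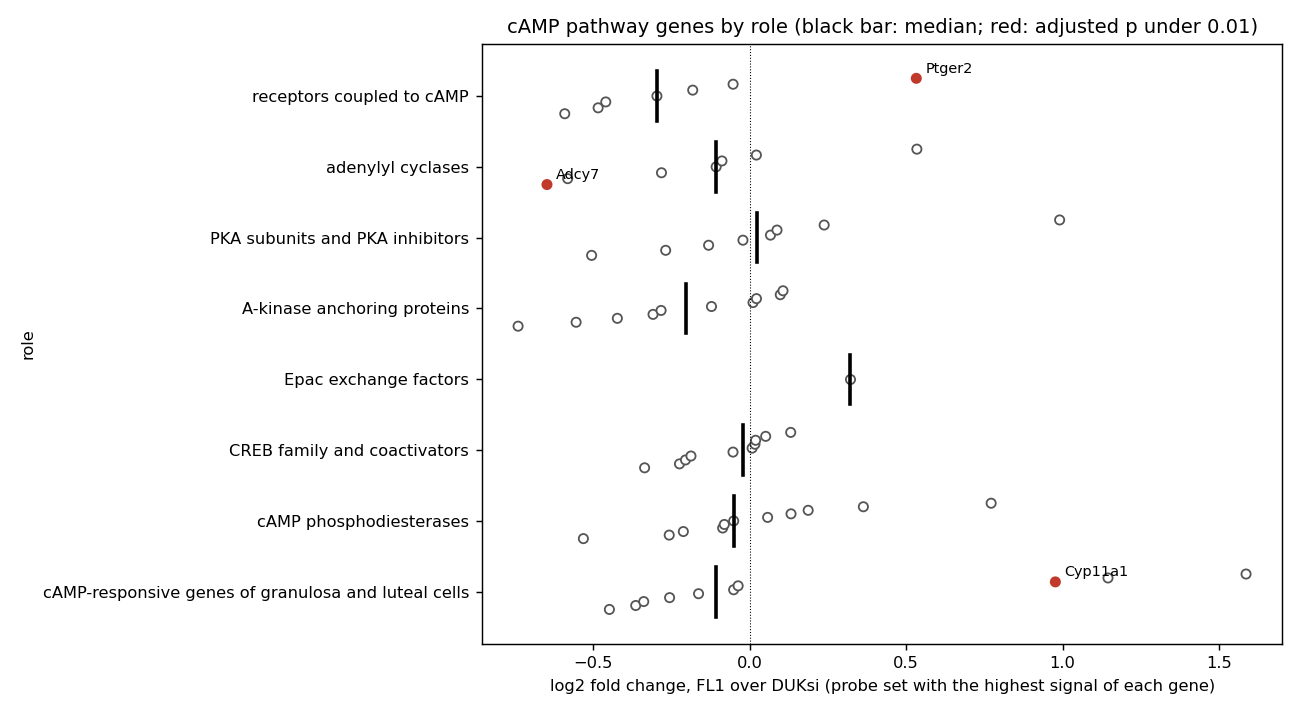
The x axis gives the log2 fold change, FL1 over DUKsi, of the 64 measured pathway genes, and the y axis their role, each gene by its probe set of highest signal; black bars are the medians of a role. Red points passed at an adjusted p under 0.01 and are Ptger2 at 0.53, Adcy7 at -0.65 and Cyp11a1 at 0.98.

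**Figure D5:**
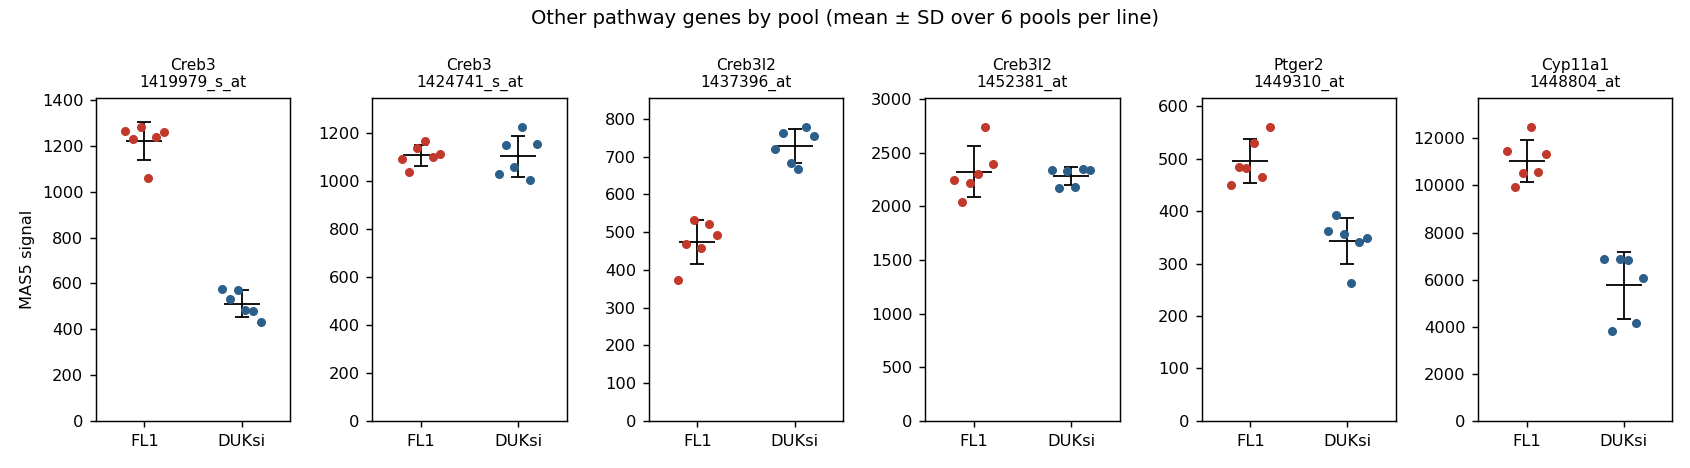
MAS5 signal (y axis, linear, from 0) of 6 probe sets of other pathway genes in the 6 FL1 pools (red, left) and the 6 DUKsi pools (blue, right), with mean and SD. Creb3 and Creb3l2 are each shown by 2 probe sets, of which 1 separates the lines and the one with the higher mean signal over all pools does not.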

How the data were processed

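The deposited intensity values were MAS5 signals that the authors computed from MOE 430A arrays, linear and brought to 1 target level on every array. The depth of such arrays is set by their number, 6 pools of 2 arrays per line. From the signals, the mean of the arrays of a pool was taken, and its log2 value entered limma 3.58.1 in R 4.3.3 (lmFit, and eBayes with a trend). Pools were the replicates. The 64 control probe sets were left out, and p-values were adjusted over the other 22626. The fold threshold was 1.5. Of these probe sets, 20380 are annotated to 1 gene, 691 to several and 1555 to none, and only the first were named.

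Genes were named by a rule that takes the 10 genes with every probe set, and of the pathway lists, by role, up to 4 genes with the largest change among those with a probe set past the test, besides Lhcgr and Creb3. Adcy2, Rapgef3, Inha, Sgk1, Per1, Nr4a1, Pde7a and Pde7b fall outside that rule and were chosen after their values were seen. The members and lists were chosen with earlier results of these data known. The adjusted t-test of the methods on linear signals was run as an alternative, and the authors' pairwise array calls were not repeated. No pair of arrays was identical. Whether the shared pool numbers pair the lines was checked by the correlation of the deviations from the line means, which ran from -0.26 to 0.17 over the 6 numbers, so the pools were not treated as pairs. The test was tried on simulated signals first. Promoters came from RefSeq on GRCm38.p6.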

Additional observations from a re-analysis of the deposited data

Results flagged for a closer look

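In each line, a pool far from the other 5 was looked for in the 20 probe sets with Dixon's ratio, which made 40 groups, and 2 values stood out. Chance alone marks about 1 in 20 groups. For Fshr 1450810_at, FL1 pool 3 read 617.1, while the other FL1 pools lay between 458.3 and 513.2 (ratio 0.654). For Pde4b 1422474_at, FL1 pool 6 read 306.8, while the other FL1 pools lay between 227.7 and 256.1 (ratio 0.641). The value for Fshr comes from the pool with the highest beta-actin ratio, 2.45, and its part in that signal was not tested.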

How the results depend on the processing

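Over up to 26 alternatives per probe set, the Adcy7 probe sets kept their sign in each. No other of the 20 passed in any alternative, so these could not change from one called direction to the other. Their signs did change in part, with Prkar1a 1452032_at keeping its sign in 19 of 26 and Fshr 1450810_at in 24 of 26. Adcy7 1456307_s_at passed in 26 of 26 alternatives (log2 fold change -0.81 to -0.56), 1450065_at in 25 of 26 and 1420970_at in 6 of 26. Of the 20, the methods' t-test found 1 lower in place of 2. Over all probe sets, 413 were higher in FL1 and 351 lower. With each array scaled to the same median these were 634 and 229, with the second array of each pool alone 270 and 198, with 24 arrays and the pool as a random block 700 and 578, and at an adjusted p under 0.05 791 and 773. With the methods' t-test 256 were higher and 251 lower, with limma without the trend 272 and 256, and with the beta-actin covariate 593 and 648. With the pool number as a replicate block, 334 were higher and 230 lower, and the member count stayed at 2. Of the pathway genes, 2 were higher in the main comparison. This count was 1 with the second array alone and with the beta-actin covariate, 4 with the same median, 5 with 24 arrays and 5 at an adjusted p under 0.05, and 1 to 3 on leaving out each pool. The count of lower genes, 1, was 3 with 24 arrays, 3 at an adjusted p under 0.05, 2 with the mean over the probe sets of a gene, and 1 to 2 on leaving out each pool. Leaving out each pool gave 2 to 3 lower member probe sets and 320 to 499 higher and 246 to 444 lower probe sets over all. The mean 3′ to 5′ ratio was 0.248 higher in FL1 for Gapdh (exact permutation test, p = 0.204) and 0.399 higher for beta-actin, on the linear scale. Star 1418729_at passed in 11 of 26 alternatives and Ptger2 in 20 of 26. The cause of these changes was not tested. Signals near the 20th percentile of all, 48.4, such as those of Creb1, have the loosest bounds, and pools hide the spread between animals.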
